A study of Mus musculus with 19 samples.

Results

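The level of each gene in standard short-read libraries was set against its level in native RNA read directly on a nanopore device, in wild-type mouse neural progenitor cells. Genes were taken where GENCODE M21 (GRCm38) annotates a protein-coding gene with at least 1 intron, which gave 20620 of 21951 protein-coding genes. The standard level was the mean TPM (a transcript's share of all transcripts in the library) of 3 libraries, summed over a gene's annotated transcripts. The native level was the summed TPM of assembled transcripts that hold an exact annotated intron of the gene. The series holds 19 samples, of which 3 standard libraries and 2 native samples enter here. The 2 native samples share 1 deposited assembly, so the native side has 1 value per gene and no replicate error. Both sides came from Mettl14 wild-type embryonic cortices, and the culture medium held the mitogens EGF and FGF2, each at 20 ng/ml. The labels name no litter, embryo or culture for any sample. Whether the spread over the 3 standard libraries is technical or lies between cultures is therefore not known and was not tested. In some neuron genes library 1 lay far under libraries 2 and 3, as given below. Standard libraries held poly(A)-selected mRNA read as single ends of 50 bp, and native libraries were made from total RNA. For 2 side comparisons, 4 wild-type and 4 Mettl14 conditional knockout ladder libraries were used, in which mRNA had been parted by length into 7 bands, together with the native assembly of knockout cells (also 2 samples in 1 file). A direct cDNA long-read assembly of wild-type cells (2 samples in 1 file) entered only as a check in the closing section. Mettl14 itself, the partner of Mettl3 in the enzyme that methylates adenosine in mRNA, read 20.7, 23.4 and 24.1 TPM in the standard libraries and 19.8 TPM in the wild-type native assembly.

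Neural progenitors of the cortex, also called radial glia, are dividing cells that carry intermediate filaments such as vimentin and nestin, transcription factors such as Pax6, Lhx2, Emx2 and Sox9, and an active Notch pathway whose targets are the Hes factors. They give rise to neurons first and to glia later. Short reads are assigned to annotated transcripts by their sequence, and the reads of a long transcript are drawn from its whole length. A native read starts at the poly(A) tail and runs towards the 5' end, and an assembler joins such reads into transcripts without being given the annotation.

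The standard libraries held 12084500, 13987900 and 13698400 estimated counts, in order of replicate number. Library 2 was quantified over 107368 targets and libraries 1 and 3 over 116067. The native assembly held 20979 transcripts, of which 17145 had introns and 16805 shared an annotated intron, and these took 81.7% of its TPM. Its read number is not given in the files, and 1 TPM stood for a mean coverage of 1.02 reads per base, so a gene at a few TPM rested on a few reads. The files give no interval for it.

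Of the 20620 genes, 10045 had a mean of both platforms of 5 TPM or more and were compared, and 3735 were at 0 on both. The native level was lower by a median of 0.27 on the log2(TPM + 1) scale (a log2 difference of -0.27), and each gene was read relative to that median. By this measure 61.9% of genes lay within 2-fold of the standard mean. A gene was called higher or lower in native when it lay at least 4-fold beyond the nearest of the 3 standard libraries. By that rule 374 genes (3.72%) were called higher and 710 (7.07%) lower, and 616 genes (6.13%) were listed at 0 in native. The filter takes part in these counts. Of the 374 genes called higher, 187 were among 393 genes with a standard mean under 5 TPM, which passed only through a high native level. A gene at 0 in native in turn passed only with a standard mean of 10 TPM or more. The 3 standard libraries differed less among themselves. Libraries 2 and 3 were within 2-fold of each other for 98.3% of the same genes, and library 1 for 90.6% with library 2 and 89.5% with library 3. Across these genes, which are not independent, the rank correlation (Spearman) was 0.67 between the native level and the standard mean, and 0.90 to 0.97 between standard libraries. With 3 libraries against 1 pooled value no test was possible, and the calls are a description.

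**Figure D1:**
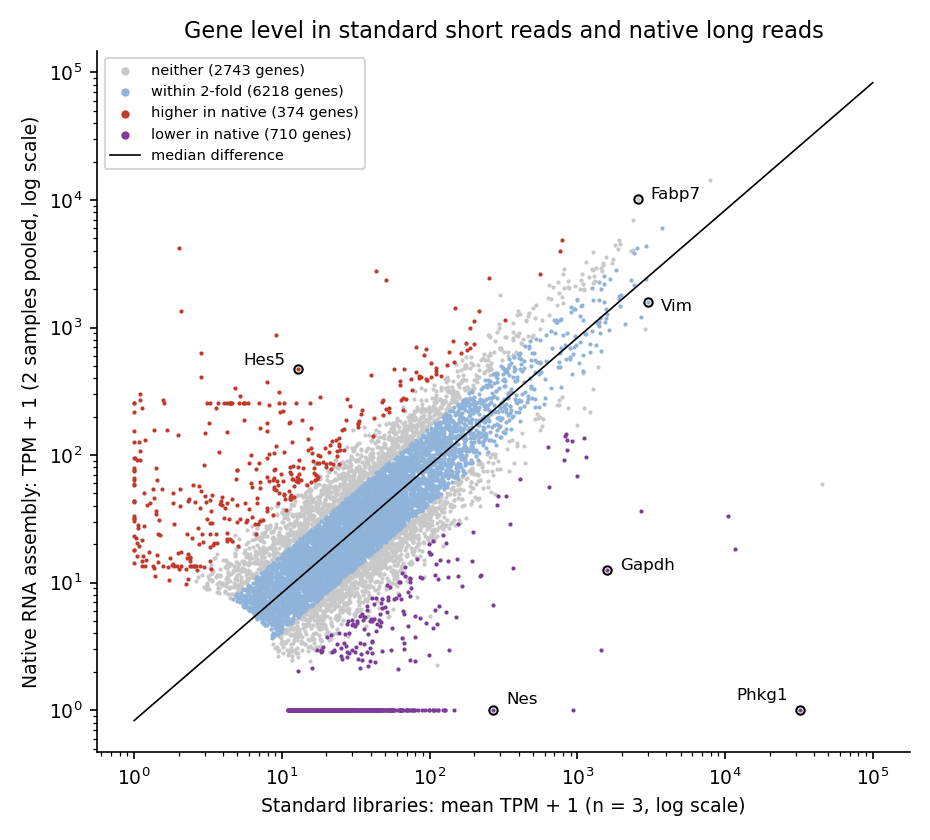
Each point is 1 of the 10045 genes compared, with the mean TPM + 1 of the 3 standard libraries on the horizontal axis and the native TPM + 1 on the vertical axis, both on log scales. The line marks the median difference, 374 genes called higher lie above it, 710 called lower lie under it, and the row of points at 1 on the vertical axis holds genes listed at 0 in native, such as Nes and Phkg1.

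The progenitor program was found on both platforms, and the share of its genes at like levels depended on the scaling. All 28 genes with introns in a list of 30 radial glia and neural stem cell genes passed the level filter. Of these, 13 (46.4%, against 61.9% of all genes) lay within 2-fold, 3 were called higher and 2 lower. Without removal of the median shift 17 (60.7%) lay within 2-fold, against 61.0% of all genes. When both sides were rescaled over multi-exon coding genes it was 18 (64.3%), against 59.9%. The list's median was 0.64 above the overall median on the log2 scale, and 22 of the 28 lay above it. Vim, the vimentin filament, read 3045, 3014 and 3027 TPM in the standard libraries and 1576 TPM in native (log2 difference relative to the median -0.67). Pax6, a patterning factor of dorsal progenitors, read 16.8, 29.1 and 24.3 TPM against 24.1 TPM. Emx2, also a cortical patterning factor, read 27.4, 27.2 and 30.2 TPM against 28.8 TPM. For Pax6 and Emx2 the native value lay among the standard libraries. Lhx2, a LIM-homeodomain factor of the cortical primordium, read 84.4, 112 and 139 TPM against 107 TPM. Notch1, the receptor that keeps progenitors undifferentiated, read 47.5, 48.7 and 54.5 TPM against 50.4 TPM. Sox9, a stem-cell factor, read 63.0, 79.4 and 76.2 TPM against 87.1 TPM. Other members within 2-fold were the cadherin Cdh2, the chondroitin sulfate proteoglycan Bcan, the receptor phosphatase Ptprz1 and the lineage factor Olig2. Cdh2 read 108, 121 and 134 TPM in the standard libraries and 102 TPM in native. Olig2 read 428.6, 501.1 and 441.3 TPM against 259 TPM.

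The progenitor members that disagreed went both ways. Fabp7, the brain lipid-binding protein of radial glia, read 3050, 2130 and 2478 TPM in the standard libraries and 10092 TPM in native, just short of a call (2.25 above the median). Mt1, a metallothionein, read 342, 290 and 342 TPM against 1150 TPM and was called higher. Cspg5 (neuroglycan C) read 64.1, 54.8 and 67.0 TPM against 355 TPM. Hes5, the Notch target, read 4.87, 12.4 and 18.3 TPM against 469 TPM, so its native level was far above each standard library (5.46 above the median). Its short gene lies at chr4:154960923-154962371 (plus strand, GRCm38). Nes, the nestin filament that is commonly used to name these cells, read 275, 249 and 284 TPM in the standard libraries and was listed at 0 in native by annotated introns.

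**Figure D2:**
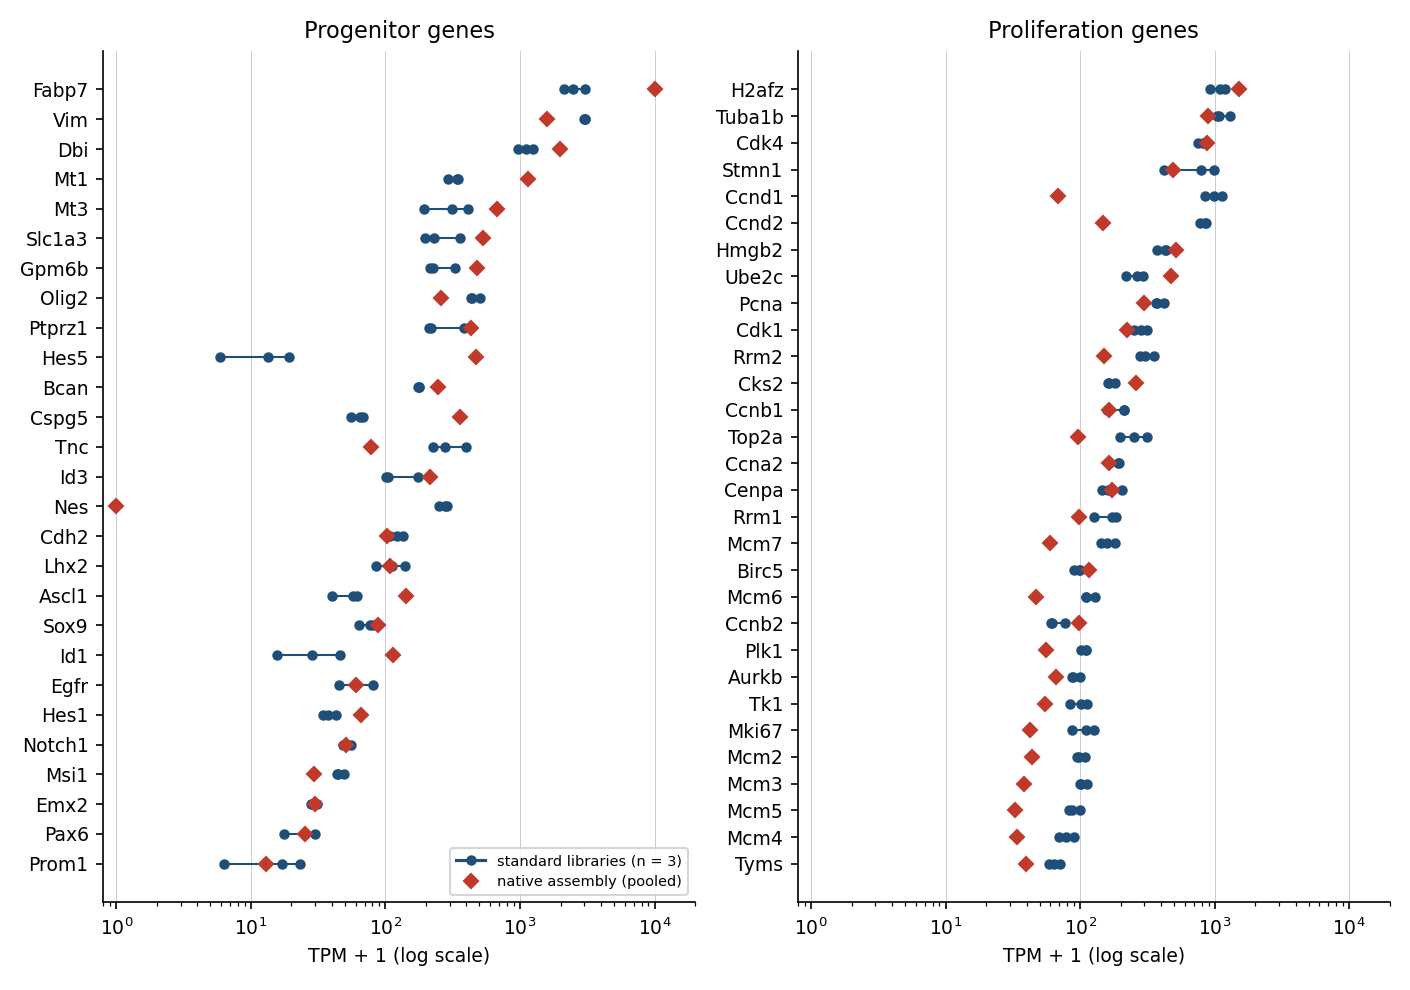
Of the 28 progenitor genes, 27 (left) and 30 proliferation genes (right) are ordered by level, with TPM + 1 on a log axis. Circles joined by a line are the 3 standard libraries and diamonds the pooled native value, and Nes and Hes5 stand apart on the left and Ccnd1 and Ccnd2 on the right.

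Cell-cycle genes were near the share of all genes in their agreement. Of 30 proliferation genes, 21 lay within 2-fold (61.9% of all genes did), none was called higher and 2 were called lower, with a median of -0.38. Cdk4, the kinase partner of D cyclins, read 827, 816 and 749 TPM in the standard libraries and 876 TPM in native. Cdk1, the mitotic kinase, read 316, 284 and 250 TPM against 221 TPM. Both D cyclins with a high level were the exceptions. Ccnd1 read 1136, 986 and 852 TPM against 67.5 TPM (3.59 under the median), and Ccnd2 read 782, 852 and 859 TPM against 146 TPM (2.23 under the median). In the list for FGF and EGF signalling, 14 of 21 genes compared (66.7%) lay within 2-fold and 2 were called lower, Ccnd1 again and Egr1. Feedback inhibitors and targets of the pathway were on both platforms. Spry2 read 204, 226 and 218 TPM against 127 TPM, Dusp6 276, 145 and 134 TPM against 107 TPM, and Etv5 222, 157 and 137 TPM against 116 TPM. Egr1, an immediate early gene, read 81.2, 150 and 110 TPM and was listed at 0 in native.

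The difference followed transcript length. Length was taken as the mean length of a gene's annotated transcripts weighted by their standard TPM. Among 928 genes under 1 kb the median lay 1.03 above the overall median (interquartile range 0.39 to 1.59), and 10.6% were called higher and 2.80% lower. Among 2490 genes of 2 to 3 kb the median was -0.14. Among 405 genes of 6 to 8 kb it was -0.76, with 1.23% called higher, 26.9% lower and 23.0% listed at 0. The 146 genes of 8 kb or more had a median of -0.38, with 34 called lower and 19.9% at 0. With native transcripts of a single exon added, which the intron rule leaves out, the medians were -0.33 at 6 to 8 kb and -0.01 at 8 kb or more. Then 16 of 449 genes (109 of 405 without them) and 1 of 173 were called lower, and 2.23% and 0.578% were at 0. Library 1 of the standard set stands apart from the other 2 in some neuron genes. Without it the medians were 0.98 under 1 kb and -0.69 at 6 to 8 kb.

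The length of the last exon moved with it. Of 2482 genes whose last exon was under 0.5 kb, 2.46% were called lower, against 31.5% of 730 genes whose last exon was 4 kb or more. The median last exon was 3084 bases in genes called lower, 675 bases in genes called higher and 1061 bases in the rest. Where a gene had native RNA, the last intron of its leading coding transcript was recovered for 93.6% of genes under 1 kb and for 94.0% at 8 kb or more. The first intron was recovered for 88.2% and 19.7%, so in long genes the recovered introns lay towards the 3' end.

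The length trend had the other direction when the ladder libraries were the short-read side. Against the 4 wild-type ladder libraries, the same native assembly gave a median of -0.60 under 1 kb and 0.78 at 8 kb or more, the opposite order. Knockout native RNA against the 4 knockout ladder libraries, which share no library with these, gave -0.57 and 0.80. How far library preparation, culture and quantification each take part was not tested.

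**Figure D3:**
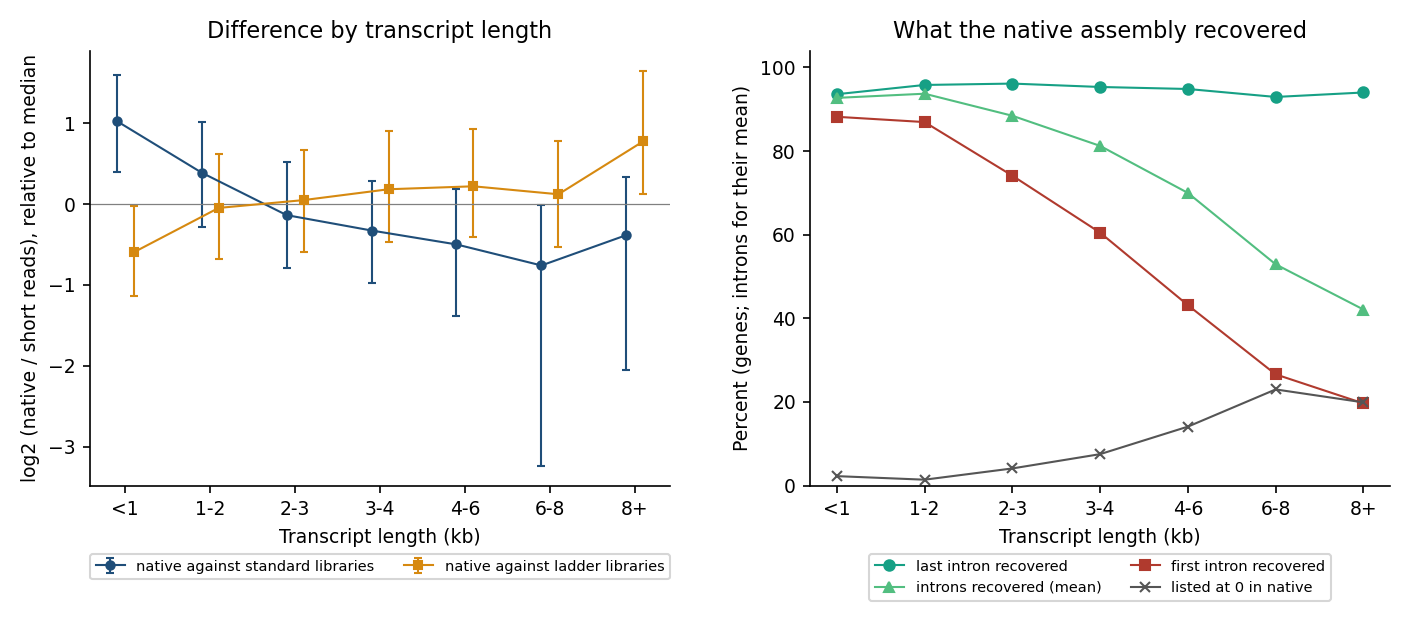
Left, the median and interquartile range of the log2 difference, relative to the median over all genes, in 7 classes of transcript length, against the standard libraries (circles) and against the wild-type ladder libraries (squares), which run in opposite directions. Right, the percent of genes with native RNA whose last and first intron were recovered, the mean percent of introns recovered, and the percent of genes listed at 0.

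Families of short genes lay above the median. Of 81 subunits of the respiratory chain and ATP synthase, 80 lay above the overall median, 13 were called higher (3.72% of all genes were) and none lower, and 10 (12.3%) were within 2-fold, with a median of 1.56. Without removal of the median shift 5 were called higher and 24 (29.6%) lay within 2-fold. Their median length was 680 bases. Ndufb4, an accessory subunit of complex I, read 37.3, 37.0 and 42.8 TPM in the standard libraries and 425 TPM in native. Its intron-less copy Ndufb4c, elsewhere in the genome, held 182 TPM in the standard mean and 9.01 TPM in native. The difference of Ndufb4 is therefore uncertain. Of the 81 genes, 14 had such copies with native RNA, a class described below. Ndufa13, also of complex I, read 77.7, 75.0 and 87.2 TPM against 701 TPM, and Ndufs3, a core subunit, read 80.9, 73.0 and 66.4 TPM against 396 TPM. The largest differences of the list were those of Cox6a2 and Cox8b, the heart and muscle isoforms of cytochrome oxidase subunits. Cox6a2 read 0, 1.36 and 1.10 TPM against 49.8 TPM, and Cox8b read 0.762, 0 and 0.658 TPM against 29.8 TPM. Both passed the level filter only through their native level, so their calls were in part fixed by the filter. In 78 mitochondrial ribosomal proteins the median was 1.01 and 1 was called higher, Mrpl11. In 36 proteasome subunits the median was 0.55 and 26 (72.2%) lay within 2-fold. Against the wild-type ladder libraries the medians of these 3 lists turned to -0.51, -0.53 and -0.39.

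Several lists had more than 61.9% of their genes within 2-fold. Of 29 genes of hnRNP and SR splicing proteins, 26 (89.7%) lay within 2-fold, and of 22 tubulin, actin and small cytoskeletal genes, 17 (77.3%). Without removal of the median shift 21 of the hnRNP and SR genes (72.4%) did, against 61.0% of all genes. Of 18 chaperone genes, 14 (77.8%) lay within 2-fold and none was called. Of 28 giant cytoskeletal and scaffold genes compared, whose median length was 7831 bases, 20 (71.4%) lay within 2-fold and 3 were called lower. The list holds 37 genes, and the 9 that did not pass the filter were at 0 in native. When both sides were rescaled over multi-exon coding genes, 17 of 30 (56.7%) lay within 2-fold, against 59.9% of all genes, and 5 were called lower. Myh9, a nonmuscle myosin heavy chain, read 124, 89.3 and 81.5 TPM in the standard libraries and 1.70 TPM in native. Ank3, the ankyrin G scaffold, read 25.6, 43.1 and 50.2 TPM against 2.51 TPM. Of 212 zinc finger genes with Zfp symbols, 25 were called lower and 24 were listed at 0, where 7.07% and 6.13% of all genes were. With single-exon native transcripts added, 5 of 231 were called lower.

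Most genes called lower had native RNA without an annotated intron. Of the 710, 526 (74.1%) had a single-exon native transcript, on the same strand, at least 50% of which lay in the gene's own exons. Among genes with neither call 4.63% had one, and of the 616 genes listed at 0, 491 (79.7%). With that RNA added, chosen as a check after the values were seen, 206 of the 710 genes stayed at least 4-fold under the lowest standard library. Nes at chr3:87971078-87980451 (plus strand), whose last exon has 5031 bases, then had 16.2 TPM, still under its lowest standard library. Nfib, a nuclear factor of glial and cortical development, read 125, 153 and 155 TPM in the standard libraries, was listed at 0 by introns and had 60.7 TPM in a single exon. Nfia, its relative, read 65.1, 89.3 and 91.6 TPM and had 22.2 TPM. Ddx6, an RNA helicase of mRNA decay, read 102, 89.2 and 85.7 TPM and had 62.6 TPM. Among the m6A writer genes, Rbm15b read 30.0, 41.8 and 51.6 TPM and had 23.5 TPM in a single exon. Of the 616 genes at 0, 124 had neither such a transcript nor an intron-less copy. Vash1, the angiogenesis inhibitor vasohibin, was one of these and read 68.6, 156 and 152 TPM in the standard libraries.

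**Figure D4:**
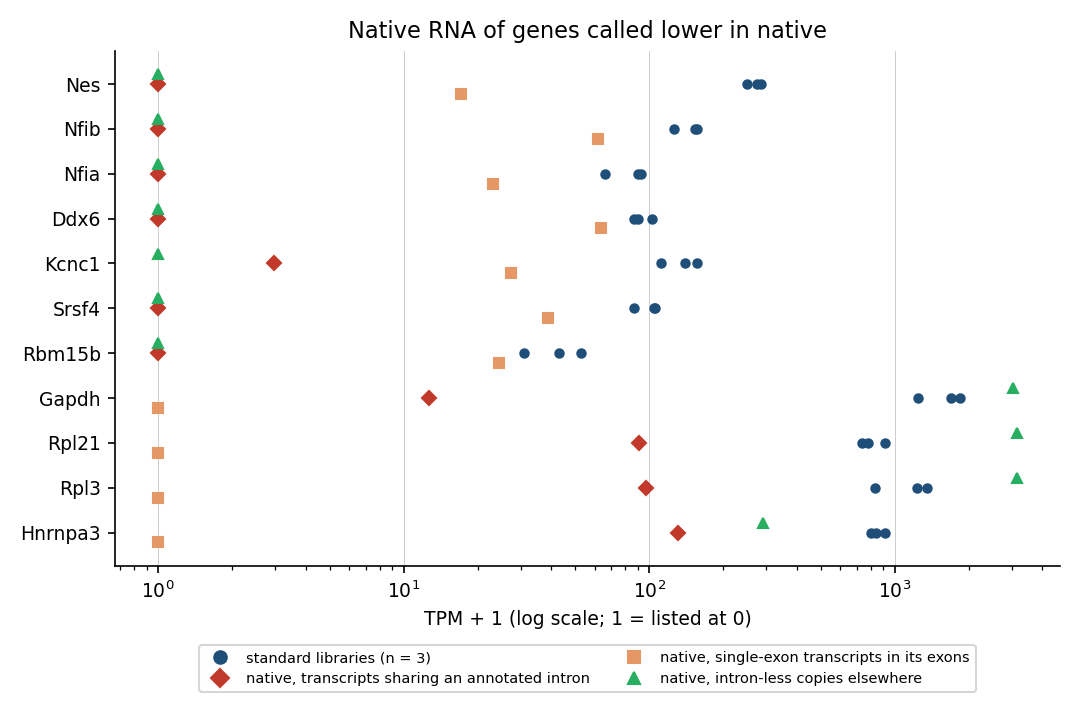
For 11 genes called lower, TPM + 1 on a log axis is shown for the 3 standard libraries (circles), for native transcripts that share an annotated intron (diamonds), for native single-exon transcripts in the gene's exons (squares) and for intron-less copies elsewhere (triangles). A value of 1 is a listing at 0, and the upper 7 genes have squares above 1 while the lower 4 have triangles above 1.

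A second class of native RNA lay on intron-less copies of a gene elsewhere in the genome. Gapdh, the glycolytic enzyme often used as a reference, lies at chr6:125161715-125166467 (minus strand). It read 1239, 1693 and 1840 TPM in the standard libraries (1590 ± 313, SD, n = 3) and 11.7 TPM in native, and 6.11 TPM in knockout native RNA. Its 17 annotated intron-less copies that shared at least 100 words of 31 bases with it, and that a single-exon native transcript covered, held 3033 TPM of native RNA against a mean of 830 TPM in the standard libraries. Gm5559 on chromosome 5 held 996 TPM in native and 0.977 TPM in the standard mean, and Gm7336 on chromosome 7 held 805 TPM and 559 TPM. The 50 bases around the junction of exons 6 and 7 of Gapdh are shown. Within them, the gene and a copy differ only through the 110-base intron that the genome holds between those exons of Gapdh. Over their whole length copies can differ from Gapdh, as Gm5559 shared 96.8% of its words with it. The Gapdh stretch joins chr6:125162212-125162236 and chr6:125162077-125162101 (minus strand), the Gm5559 stretch is chr5:95862621-95862670 (plus strand) and the Gm7336 stretch is chr7:51747604-51747653 (plus strand), from the GENCODE M21 transcripts. Capitals mark 3 bases on each side of the junction. The junction was chosen as the one at which the copies differ least.
Gapdh: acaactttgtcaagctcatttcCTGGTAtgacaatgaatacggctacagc
Gm5559: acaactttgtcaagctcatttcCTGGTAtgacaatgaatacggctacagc
Gm7336: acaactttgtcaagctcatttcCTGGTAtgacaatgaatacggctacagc
The 3 stretches have 50 of 50 bases in common, and so have those of the other copies. With native RNA and standard TPM of the copies added, Gapdh moved from 6.70 under the median to 0.59 above it.

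Ribosomal protein genes, which have many such copies, were the largest part of this class. Over all genes, 399 intron-less copies of 220 parent genes took 10.6% of native TPM and 3.20% of standard TPM, and 194 of them, copies of 67 ribosomal protein genes, took 9.31% and 2.19%. Gm12918, a copy of Rpl13, held 3402 TPM of native RNA and 259 TPM in the standard mean, with all 606 of its words shared. Of 82 ribosomal protein genes compared, 3 were called higher, 4 lower and 36 (43.9%) lay within 2-fold, with a median of 0.91. The 4 called lower all had copies, as did 67 of the 82 genes compared. Rpl3 read 828, 1234 and 1357 TPM in the standard libraries and 96.4 TPM in native, while its copies held 3137 TPM of native RNA. Rpl21 read 733, 914 and 777 TPM against 90.3 TPM, with 3144 TPM on its copies. With copies added on both sides none of the 82 lay 4-fold under the standard mean relative to the median, and the median was 1.31. Then 21 of the 82 lay within 2-fold, fewer than the 36 without copies added. Rpl12, with 4.40 TPM of native RNA on copies, read 122, 163 and 157 TPM in the standard libraries and 1414 TPM in native. Where reads of near-identical copies belong cannot be settled from these files, so the levels of these genes and of their copies are uncertain on both platforms. Against the wild-type ladder libraries the median of the ribosomal list was -0.87.

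Several genes with very large standard levels and little or no native RNA had their standard TPM on targets that hold a long run of A. In the standard libraries, 85 targets of libraries 1 and 3 and 77 of library 2 hold a run of 31 or more A. They took 174237, 121369 and 153585 TPM in libraries 1, 2 and 3. Targets whose longest run was 25 to 30 bases took 2330, 2457 and 1995 TPM. In the 4 wild-type ladder libraries the targets with 31 or more A took 207 to 273 TPM. Phkg1, a subunit of phosphorylase kinase in muscle, read 46437, 23227 and 26937 TPM in the standard libraries, was listed at 0 in native and read 0.953 to 1.44 TPM in the ladder libraries. Of its standard TPM, 99.996% was on 1 target of 670 bases annotated as a retained intron. Calb1, the calcium buffer calbindin, read 835, 2910 and 608 TPM against 1.96 TPM in native, Pecam1, an endothelial adhesion molecule, 613, 1546 and 635 TPM against 0, and Pak2, a p21-activated kinase, 283, 460 and 247 TPM against 46.5 TPM. The leading target of each is a retained intron, and the run with 30 bases on each side is shown, with the run in capitals, since the run is the feature by which these targets were grouped. The windows are chr5:129869794-129869888 (minus strand), chr4:15895730-15895821 (plus strand), chr11:106662898-106663000 (minus strand) and chr16:32033251-32033341 (minus strand), in that order, with runs of 35, 32, 43 and 31 bases.
Phkg1: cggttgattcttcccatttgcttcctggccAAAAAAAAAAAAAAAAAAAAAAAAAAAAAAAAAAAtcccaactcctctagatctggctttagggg
Calb1: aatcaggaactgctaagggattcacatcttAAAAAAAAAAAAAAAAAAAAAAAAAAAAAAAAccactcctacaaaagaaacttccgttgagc
Pecam1: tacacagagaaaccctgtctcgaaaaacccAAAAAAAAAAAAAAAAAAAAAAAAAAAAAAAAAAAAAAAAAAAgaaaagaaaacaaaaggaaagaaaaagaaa
Pak2: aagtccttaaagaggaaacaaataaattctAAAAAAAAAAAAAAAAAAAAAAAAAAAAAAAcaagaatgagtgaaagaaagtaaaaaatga

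Stox2 also had such a target and read 16019, 10706 and 8269 TPM against 17.4 TPM in native, with 99.7% of its standard TPM on a target with a run of 31 A. Klf10, a Krüppel-like transcription factor, read 61921, 91.5 and 73478 TPM against 58.2 TPM. Library 2, whose target set leaves out the Klf10 target with a run of 33 A, was the one near the native level, and Klf10 was therefore not called lower. Npffr1 (31.9, 80.2 and 23.4 TPM) has a run of 31 A in its leading target and no native RNA. Of the 710 genes called lower, 12 (1.69%) had a leading target with such a run, against 0.289% of genes compared. With these targets left out and the rest rescaled, 385 genes were called higher and 787 lower, and the median difference went from -0.27 to -0.50. Lars2, a mitochondrial leucyl-tRNA synthetase, read 9992, 13438 and 8146 TPM in the standard libraries, 32.2 TPM in native and 1542 to 2112 TPM in the wild-type ladder libraries. Of its standard TPM, 99.9% was on 1 target of the nonsense-mediated decay class, and over protein_coding transcripts alone Lars2 lay 1.04 above the median.

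Among genes called higher, 169 of 374 (45.2%) share an exact intron with another annotated gene, against 498 of all 10045 compared (4.96%). A native transcript over such an intron was credited to both genes. Prn, a read-through of Prnp and Prnd, read 0, 0 and 0.305 TPM against 267 TPM, the native level of Prnp itself. Arhgap4, a GTPase-activating protein, shares 5 introns with Naa10 and has the native level of Naa10, 157 TPM, against 0.308, 0.834 and 0.830 TPM in the standard libraries. Snurf (0 in each standard library, 154 TPM in native) and Snrpn, which share a transcript, had the same native level, and so had Asdurf (0 in each standard library, 78.7 TPM) and Asnsd1. Of 34 clustered protocadherins compared, adhesion molecules whose gamma members share constant 3' exons, 32 were called higher, with a median of 4.95. Pcdhga1, Pcdhga9 and Pcdhgb1 each had the same 254 TPM in native, with standard libraries between 1.32 and 3.74 TPM, while Pcdhgc3, which shares those introns, read 279, 163 and 145 TPM against 254 TPM. Counted over introns of 1 gene only, 7 protocadherins passed the filter and 1 was called higher, and over all genes 232 were called higher and 763 lower.

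The other 205 genes called higher share no intron, and their native RNA was on introns of their own. Their median level was 11.2 TPM in the standard libraries and 71.3 TPM in native. Beside Hes5, the largest differences with regular symbols were those of Ramp1, Nupr1, Timp4, Eif2s3y and Cox6a2, chosen after their values were seen. Ramp1, a receptor activity-modifying protein, read 5.10, 9.54 and 6.25 TPM against 375 TPM. Nupr1, a stress-response transcription regulator, read 4.28, 3.82 and 5.49 TPM against 188 TPM, and Timp4, an inhibitor of metalloproteinases, 15.3, 5.56 and 4.97 TPM against 311 TPM. Cst3, the protease inhibitor cystatin C, read 250, 225 and 273 TPM against 2423 TPM, and Gm2a, a lysosomal lipid activator, 21.5, 15.4 and 14.7 TPM against 283 TPM. In each of these genes the native level lay above all 3 standard libraries, as the call itself requires. Nupr1, Eif2s3y and Cox6a2 had standard means under 5 TPM and passed the filter only through their native level. Their calls were thus in part fixed by the filter.

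Genes of the Y chromosome were among those that stood apart. Eif2s3y, a translation initiation factor subunit, read 0 in each standard library, 29.6 TPM in wild-type native and at most 0.0207 TPM in the wild-type ladder libraries. Ddx3y, an RNA helicase, read 0, 0.190 and 0.228 TPM against 15.2 TPM. Eif2s3y and Ddx3y passed the level filter only through their native level. Kdm5d and Uty, a histone demethylase pair, were under 0.6 TPM in each standard library and read 8.40 and 7.12 TPM in native, under the level filter. Knockout native RNA held 7.87 TPM of Eif2s3y. For these and all other genes here a difference between cultures and one between platforms cannot be told apart.

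Markers of other cell types differed between the standard libraries and between platforms. Of 18 neuron genes, 11 were listed at 0 in native. The filter kept 12 of the 18, of which 2 were called lower and 6 were at 0 in native. A gene at 0 in native passes only with a standard mean of 10 TPM or more, so these 6 were bound to lie under the median. Tubb3, the neuronal tubulin, read 6.69, 182 and 291 TPM in the standard libraries and 28.4 TPM in native. Stmn2, a growth-cone protein, read 0.0655, 134 and 198 TPM against 1.27 TPM. Dcx, a microtubule protein of migrating neurons, read 1.61, 61.5 and 78.7 TPM and was listed at 0. Snap25, a synaptic protein, read 6.16, 76.4 and 114 TPM against 2.68 TPM. For these 4 genes standard library 1 was far under libraries 2 and 3, and native was nearer to library 1. Over the list as a whole the standard libraries differed less than in these 4 genes. The summed level of the 18 genes was 772, 1220 and 1591 TPM in the standard libraries, 360 TPM in native and 354 to 497 TPM in the wild-type ladder libraries. Without library 1, 11 of 15 neuron genes compared were called lower, and over all genes 464 were called higher and 889 lower. Slc16a3, a lactate transporter, showed the same split, with 0.449, 83.6 and 88.3 TPM against 17.4 TPM. Fewer neurons and less of this RNA per cell cannot be told apart in bulk samples.

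A few glial lineage genes had native levels above every standard library. Pdgfra, the receptor that marks oligodendrocyte precursors, read 7.97, 4.74 and 2.82 TPM in the standard libraries and 59.3 TPM in native. Sox10, a transcription factor of that lineage, read 3.27, 1.95 and 1.49 TPM against 28.3 TPM. Of the 10 genes in that list 4 passed the filter and these 2 were called, but Sox10 passed only through its native level, so the call was in part fixed by the filter. The other 6, genes of mature myelin, were listed at 0 in native. Of these, Mag, Mobp, Mog and Opalin were at 1.45 TPM or less in each standard library, and Mbp, myelin basic protein, read 0.707, 5.28 and 9.49 TPM. Of 8 astrocyte genes compared, 6 (75.0%) lay within 2-fold and 2 were called higher. Apoe, the apolipoprotein of astrocytes, read 89.95, 60.64 and 128.3 TPM against 674 TPM, while the wild-type ladder libraries read 2697 to 4031 TPM. S100b read 0.286, 0.255 and 0.0825 TPM against 14.04 TPM, and likewise passed only through native. All 8 microglia genes and all 6 meningeal fibroblast genes were listed at 0 in native, and their sums in the standard libraries were 1.34 to 2.97 TPM and 1.14 to 15.2 TPM. Among endothelial and mural genes Pecam1 alone passed the filter, through the target with a run of A.

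**Figure D5:**
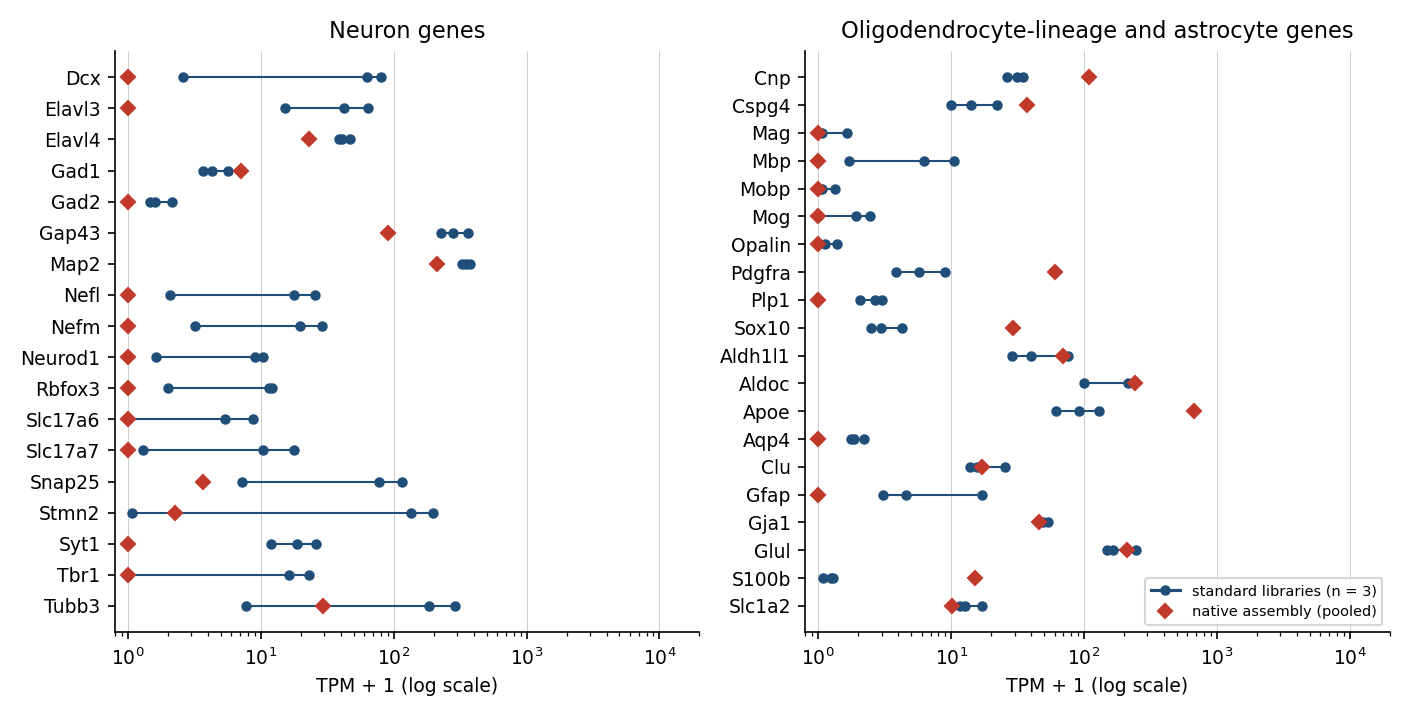
Neuron genes (left) and genes of the oligodendrocyte lineage and astrocytes (right) are shown as TPM + 1 on a log axis, with circles for the 3 standard libraries and diamonds for the pooled native value. Tubb3, Stmn2, Dcx and Snap25 spread widely over the standard libraries, and Pdgfra, Sox10, Apoe and S100b have native values above all 3.

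The same rule was applied to knockout cells, with the 4 knockout ladder libraries against the knockout native assembly. These share no library with the wild-type comparison but differ from it in genotype and in the kind of short-read library. Of 8516 genes compared there, 383 (4.50%) were called higher and 487 (5.72%) lower. Of the genes called higher in wild type, 149 were called higher again, which is 39.8% of the wild-type and 38.9% of the knockout list. For genes called lower it was 116, which is 16.3% and 23.8%. Only 316 of the 374 higher and 323 of the 710 lower genes passed the filter in knockout, so the remaining ones could not recur. Recurrence differed with shared introns. In both genotypes a native transcript was credited to each gene that shares its intron, so recurrence of such genes was in part built in. Of the 169 higher genes that share an intron, 136 (80.5%) recurred, and of the 205 that do not, 13 (6.34%), among them Rpl12 (147 ± 22.2 TPM, SD, n = 3, against 1414 TPM in wild type) and Mrpl11 (16.7, 19.6 and 19.3 TPM against 112 TPM). Of all genes compared in knockout 4.50% were called higher there, but that share includes genes with shared introns. The 205 also hold genes that did not pass the filter in knockout. The 6.34% and the 4.50% are therefore not of like sets. Counted over introns of 1 gene only, 15 higher genes recurred. In the opposite direction, 16 genes called higher in wild type were called lower in knockout, Hes5 and Apoe among them, and 6 went the other way.

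The highest levels were largely shared. Of the 100 genes with the highest standard mean, 61 were among the 100 with the highest native level, and 36 of these were ribosomal proteins. The others included Eef1a1, the elongation factor that brings tRNA to the ribosome (7961 ± 1128 TPM, SD, n = 3, against 14218 TPM), Fabp7, Ckb, the brain creatine kinase (3719 ± 1040 against 6014 TPM), Tmsb4x, the actin-binding thymosin (2901 ± 161 against 4340 TPM), Vim and the actin gene Actg1 (2414 ± 112 against 2154 TPM). Of 18 glycolysis genes, 13 (72.2%) lay within 2-fold and only Gapdh was called lower. Eno1, the enolase, read 1300, 1752 and 1711 TPM against 1273 TPM, and Pkm, the pyruvate kinase, 802, 1253 and 1297 TPM against 891 TPM.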

How the data were processed

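Per the submitters' processing notes, kallisto quantified the standard and ladder libraries, and the authors deposited its estimated counts and TPM for each target. The kallisto version is not given in the sources used. Native reads were mapped with minimap2 2.17 per the submitters' processing notes and assembled with StringTie 2.0 in its long-read mode without a guide annotation, per the file headers. The deposited assembly pools 2 samples and gives TPM and coverage of each transcript.

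TPM was summed per GENCODE M21 gene, and an assembled transcript was credited to each gene whose annotated intron it holds. Genes with a mean of both platforms of 5 TPM or more were compared as log2(TPM + 1), relative to the median. A call needed 4-fold beyond the nearest standard library. Estimated counts served for depth only. Intron-less copies were annotated single-exon genes sharing 100 or more words of 31 bases with a gene. Coordinates are GRCm38. Python 3.11.15 with pandas 2.3.3 was used, and the call rule and intron matching were tested on simulated data.

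Named genes were the 10 largest differences each way, the 6 highest absent from either side, up to 2 each way of 26 lists, and the 5 highest agreeing genes of 3 lists. Lars2, Stox2, Calb1, Nfia, Ddx6, Klf10, Npffr1, Pak2, Y-linked and neuron genes and other genes outside that rule were named after their values were seen. Some genes that the rule or the lists hold are not reported here, but counts include them. Members and lists were chosen with earlier results of these data known. Alternatives are in the closing section.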

Additional observations from a re-analysis of the deposited data

Results flagged for a closer look

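Several genes went in opposite directions in the 2 genotypes, a difference that was not tested, and the kind of short-read library differs with the genotype. Called higher in native in wild type and lower in native in knockout were Apoe (log2 difference relative to the median in knockout -6.23), Nupr1 (-5.33), Hes5 (-3.22), Cspg5 (-3.10), Cox8b (-2.62), Cst3 (-2.62), S100b (-2.62) and Pla2g7 (-2.50). Rpl3 was called lower in wild type and higher in knockout (5.62). Hes5 read 469 TPM in wild-type and 4.74 TPM in knockout native RNA. Apoe read 674 and 99.5 TPM.

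In the 4 knockout ladder libraries, 1 library lay apart from the other 3 for Phkg1 (1.09 TPM) and for Stmn2 (0.0126 TPM), and chance gives about 1 such group in 20.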

How the results depend on the processing

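No paired analysis was possible because the native replicates were pooled into 1 assembly before deposit. The native side has no replicate error, its read number was not analysed here, and culture, input RNA and platform cannot be told apart. At 1 TPM for about 1.02-fold coverage, native levels of a few TPM are imprecise and a listing at 0 is no absence.

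The median log2 difference (-0.27), the counts called (374 higher, 710 lower), the percent within 2-fold (61.9%) and recurrence in knockout (149 higher, 116 lower) were recomputed. A pseudocount of 0.1 gave 59.92% within 2-fold, and 5 gave -0.2257, 263 lower, 68.59% and 61 recurring lower. A filter of 1 TPM gave -0.3583, 55.38% and 403 recurring lower. A filter of 20 TPM left 6187 genes, with -0.1387, 239 higher, 233 lower, 63.31% and 19 recurring lower. No filter left 16885 genes, with 67.10% and 248 recurring lower. Without the median shift 61.03% lay within 2-fold. Rescaling over multi-exon coding genes gave -0.3106, 59.89% and 188 recurring lower. Complete intron chains gave -0.6224, 2534 lower, 44.12%, and 16 higher and 687 lower recurring. With 1 gene for each native transcript there were 241 higher, 62.36% and 20 recurring higher. Protein_coding transcripts alone gave 0.002822 and 61.18%, with Lars2 at 1.039, and shared targets gave -0.3248 and 61.22%. A 2-fold call gave 1459 higher and 1442 lower, with 302 and 299 recurring, and an 8-fold call 179 higher, with 99 and 75 recurring.

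Leaving out each standard library in turn gave -0.2801 to -0.2587, 402 to 464 higher, 729 to 889 lower and 60.78% to 61.84% within 2-fold.

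With the wild-type ladder libraries as the short-read side the median was 1.230, with 306 lower and 67.70% within 2-fold. The medians of genes under 1 kb and of 6 kb or more then turned to -0.5966 and 0.2607. Apoe (-3.556), Cst3 (-0.2758), Mt1 (-0.7973), Pak2 (0.6301), Rpl3 (2.055) and Stox2 (0.1085) reversed. With direct cDNA as the long-read side the median was -3.355, with 124 higher, 117 lower, 77.92% within 2-fold and 0.0006925 at 6 kb or more. In the cDNA assembly 6.165% of TPM shared an annotated intron, against 81.69% in native. With so low a median, a gene at 0 in cDNA was called lower only at a high standard level. These cDNA counts therefore cannot be set beside those of native. Col5a1 (0.001715), Kcna2 (0.125), Nfia (0.6745) and Rpl5 (-1.186) reversed.

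Other settings were chosen after seeing the data. Introns of 1 gene only gave 232 higher, 62.37% and 15 recurring higher. Adding single-exon transcripts gave -0.2137, 226 lower, 66.52% and 25 recurring lower. Adding copies gave Gapdh 0.5887, Rpl21 1.559 and Rpl3 1.376. Leaving out targets with long runs of A gave -0.503 and 61.19%. Of 2338 values of 116 named genes over these settings, 1735 moved by less than the spread of the standard libraries, 589 moved by more and 14 reversed. The median of genes of 6 kb or more (-0.6426) went to -3.548 with complete intron chains, to -0.2239 with single-exon transcripts added and to -1.014 to -0.4821 under the scaling and filter settings that moved it. Except where the construction shows it, the cause was not tested.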
